A study of Mus musculus with 8 samples.

Results

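The genes described here are 7 ligands of the TGF-beta superfamily (Tgfb1, Tgfb2, Tgfb3, Inhba, Bmp2, Bmp4 and Bmp7) and 3 Id genes (Id1, Id2 and Id3), which are 10 of the 53697 genes in the count table. They were chosen by name, with earlier results of these data known. All 10 were found and passed the filter on low counts, with at least 25 counts in every library. The study sorted mammary tumor cells by a reporter of the Notch ligand gene Dll1, so the comparisons ask how Dll1+ and Dll1- tumor cells differ. The 8 RNA libraries came from 4 mice, with a Dll1+ and a Dll1- library from every mouse. All mice carried the MMTV-PyMT transgene, in which the mammary tumor virus promoter drives the polyoma middle T oncogene in mammary epithelium, on a C57BL/6 background. Of these, 2 PyMT-Dll1GFP mice (GFP mice) had GFP and an inducible Cre knocked into the Dll1 locus, and 2 PyMT-Dll1mCh mice (mCh mice) had mCherry on a bacterial artificial chromosome with Dll1 sequence. Cells bearing CD45, CD31 or Ter119 were removed in the sort to enrich epithelial cells. The age of these animals is not given in the sources used here.

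TGF-beta and activin ligands act through receptor kinases that phosphorylate Smad2 and Smad3, whereas BMP ligands act through Smad1, Smad5 and Smad9. Id proteins lack a DNA-binding domain and hold E proteins away from DNA, and Id1, Id2 and Id3 are textbook targets of BMP signaling. In mammary epithelium and its tumors TGF-beta is best known for restraining division and promoting mesenchymal traits.

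A library held between 27301396 and 123907626 counts (median 38191068). Dll1 itself was at 7.61 and 13.7 CPM (counts per 1000000 after TMM scaling) in the Dll1- and 87.5 and 138 CPM in the Dll1+ libraries of GFP mice. In mCh mice it was at 34.7 and 50.3 CPM against 203 and 250 CPM, so the sorted gene followed the labels in all 4 mice (log2 fold change 2.90 ± 0.24 SE, edgeR adjusted p = 0.0065). The first principal component held 58.3% of the variance and separated the 4 GFP from the 4 mCh libraries. Markers of luminal mammary cells summed to 6332 and 5899 CPM in Dll1- against 6798 and 6680 CPM in Dll1+ libraries of GFP mice. In mCh mice they summed to 5240 and 6602 against 6213 and 8732 CPM, so this sum was higher in Dll1+ cells of every mouse. Over all mice 1 of 10 luminal markers was called higher and 2 lower. Markers of cells outside the epithelium were present as well. The sum of 10 fibroblast markers was 1230 to 1441 CPM in the GFP libraries, 3631 and 3789 CPM in the Dll1+ and 8187 and 23322 CPM in the Dll1- libraries of mCh mice. None of those 10 markers was at 0 in all libraries. Basal mammary markers summed to 187 and 158 CPM in Dll1- against 426 and 245 CPM in Dll1+ libraries of GFP mice, and to 488 and 845 against 1610 and 1654 CPM in mCh mice. The sum of basal markers was thus higher in Dll1+ cells of every mouse as well. Over all mice 4 of 10 basal markers (Krt5, Cnn1, Oxtr and Trp63) were called higher, with a median log2 fold change of 1.02. Proliferation genes fell (12 of 12 called lower in Dll1+ cells) and immediate-early genes rose (10 of 17 called higher), the latter being genes that tissue digestion is also known to induce. In bulk samples like these, fewer cells of a type and less RNA per cell cannot be told apart.

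Over all 4 mice, Id3 was the single member called between Dll1+ and Dll1- cells, at 1.67-fold lower in Dll1+ cells. In GFP mice Bmp4 rose 2.58-fold and Tgfb2 fell 1.48-fold, and in mCh mice no member was called. Promoters of these 3 genes are shown because they carry the calls. The windows span 250 bases before to 50 bases after the start in RefSeq (GRCm38.p6), and 6 of the 10 members had an entry. Capitals mark GTCTG on either strand, the Smad box that Smad3 and Smad4 are known to bind. The Id3 window is chr4:136143572-136143871 (+ strand), and lies downstream of the first base of the GENCODE gene at 136143497. The Tgfb2 window is chr1:186705940-186706239 and the Bmp4 window chr14:46390620-46390919, both on the - strand. Each is printed 5′ to 3′ along the gene.
Id3: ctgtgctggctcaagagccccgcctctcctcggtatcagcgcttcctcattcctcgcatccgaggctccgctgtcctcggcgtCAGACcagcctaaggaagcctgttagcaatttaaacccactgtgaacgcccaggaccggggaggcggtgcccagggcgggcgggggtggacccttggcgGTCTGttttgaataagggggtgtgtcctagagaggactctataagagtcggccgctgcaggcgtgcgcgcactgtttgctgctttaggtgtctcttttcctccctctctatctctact
Tgfb2: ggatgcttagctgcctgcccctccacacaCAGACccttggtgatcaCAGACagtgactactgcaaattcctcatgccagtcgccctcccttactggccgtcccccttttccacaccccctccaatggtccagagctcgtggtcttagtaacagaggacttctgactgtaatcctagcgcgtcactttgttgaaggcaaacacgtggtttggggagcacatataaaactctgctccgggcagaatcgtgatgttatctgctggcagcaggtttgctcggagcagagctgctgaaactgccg
Bmp4: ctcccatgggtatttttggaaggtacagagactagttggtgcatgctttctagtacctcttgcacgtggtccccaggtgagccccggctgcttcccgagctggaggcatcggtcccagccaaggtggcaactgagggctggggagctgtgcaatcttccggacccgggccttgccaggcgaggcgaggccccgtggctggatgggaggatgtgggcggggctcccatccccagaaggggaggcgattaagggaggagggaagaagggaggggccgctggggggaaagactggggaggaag
The Id3 window held 2 matches, which began at bases 84 and 183 from its 5′ end, and the Tgfb2 window 2, at bases 30 and 47. The Bmp4 window held none. GTCTG occurred on either strand in 49.6% of the 32851 promoters of the same length. The GC-rich Smad site GGCGCC (11.9% of promoters) was found once among the 6 members, in Id2, and TGGGAA, the RBPJ site of Notch signaling (25.6% of promoters), in none of them. A match is a string of letters and was not tested for binding.

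In GENCODE M21 (GRCm38) Id3 spans chr4:136143497-136145755, Bmp7 chr2:172868012-172940321, Id1 chr2:152736251-152737410, Tgfb1 chr7:25687002-25705077, Tgfb2 chr1:186622792-186705989 and Bmp4 chr14:46383520-46390669. All members are protein-coding, and values are estimated counts of reads assigned to a gene's transcripts. The members differed widely in level. Per kilobase of exon, and averaged over the 8 libraries, Tgfb3 was highest at 122 CPM per kb and Id2 next at 77.8 CPM per kb. Id1 (25.6) and Id3 (20.6) followed, then Tgfb2 (8.74) and Tgfb1 (8.45), all in CPM per kb. The BMP ligands were lower, with Bmp7 at 1.60, Bmp4 at 1.22 and Bmp2 at 1.09 CPM per kb, and Inhba, which encodes the activin A subunit, was lowest at 0.302 CPM per kb. Tgfb3 lies across from Ttll5 on the opposite strand, and Tgfb2, Inhba and Bmp4 also overlap other annotated genes. These overlaps are of whole gene spans, introns included, and whether transcripts share sequence was not examined. Whether the counting used strand is not given in the sources used here, so their levels are uncertain to that extent.

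**Figure D1:**
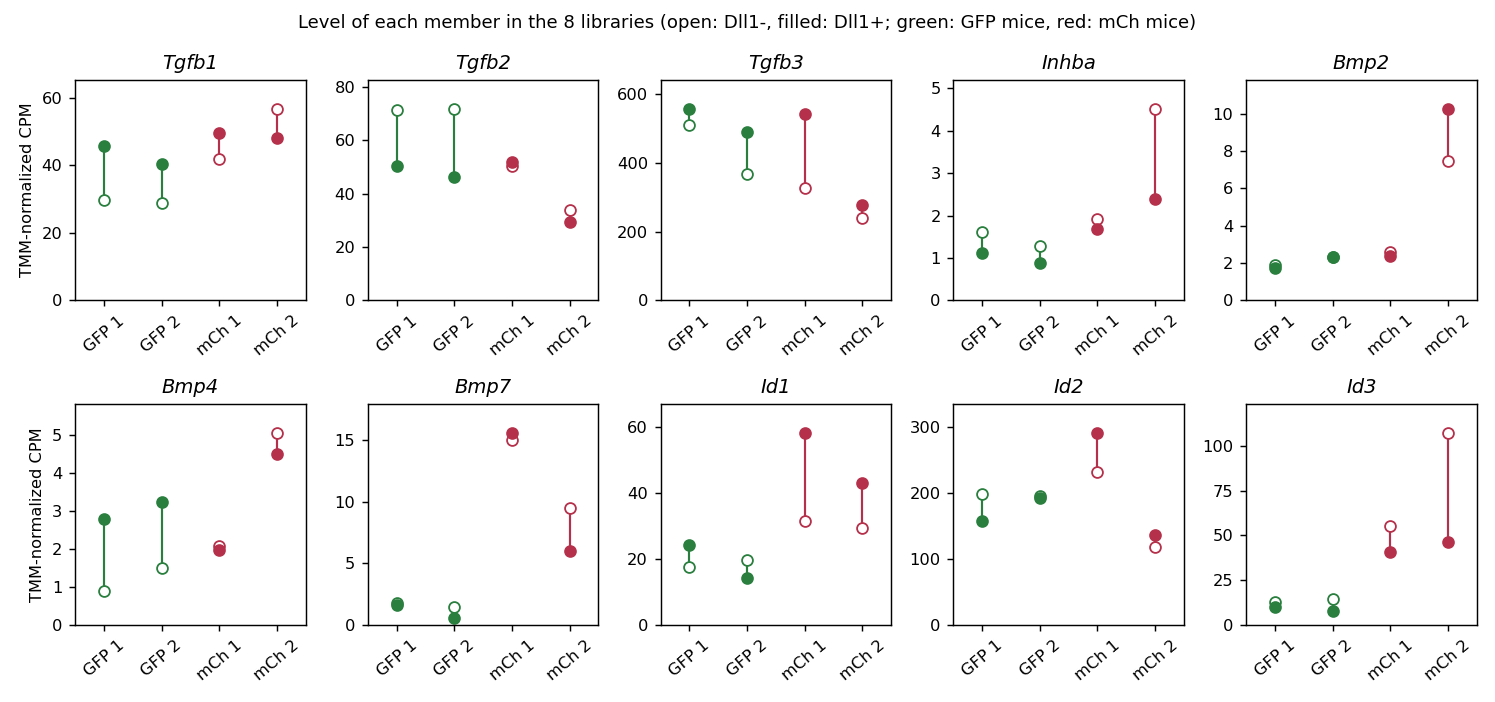
TMM-normalized CPM (vertical axes, linear from 0) of the 10 members for the 4 mice (horizontal axes). Open circles are Dll1- and filled circles Dll1+ libraries of the same mouse, joined by a line, in green for GFP and red for mCh mice. Id3 is lower in the Dll1+ library of each mouse, and Bmp4 is higher in the Dll1+ library of both GFP mice but of neither mCh mouse.

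Of the Id genes, Id3 was called over all mice. In GFP mice Id3 was at 12.9 and 14.6 CPM in the Dll1- and at 10.04 and 7.74 CPM in the Dll1+ libraries. In mCh mice it was at 55.5 and 107 CPM in the Dll1- and at 40.9 and 46.5 CPM in the Dll1+ libraries. The Dll1+ library was the lower one in 4 of 4 mice, and the groups did not overlap within either reporter. The log2 differences of the mice were -0.36, -0.91, -0.44 and -1.21. Over all 4 mice the log2 fold change was -0.74 ± 0.16 SE (edgeR adjusted p = 0.038). Id3 was 1 of 10 members called, against 14.0% of the 18322 genes tested in either direction and 7.04% called lower, with 6.98% called higher. Being lower in all 4 mice was shared by 19.9% of tested genes.

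The call for Id3 rested on the mice included. Without GFP mouse 1, GFP mouse 2 or mCh mouse 1 its adjusted p was 0.071, 0.12 and 0.10, with log2 fold changes of -0.85, -0.68 and -0.84, and without the mouse block it was 0.81 with a log2 fold change of -0.85. Within reporters it reached -0.64 ± 0.25 SE in GFP mice (edgeR adjusted p = 0.20) and -0.82 ± 0.23 SE in mCh mice (edgeR adjusted p = 0.090), where it was -1.23 and called without mouse 1 (0.039). The difference between these effects was 0.18 ± 0.34 SE on the log2 scale (edgeR adjusted p = 0.88). The sum of 8 pericyte markers moved with Id3 in mCh mice, from 742 and 916 CPM in Dll1- to 298 and 262 CPM in Dll1+ libraries, as did the fibroblast sum given above. Endothelial markers went from 259 and 594 to 146 and 147 CPM and immune markers from 844 and 862 to 409 and 379 CPM. In mCh mice 6 of 8 pericyte, 5 of 10 fibroblast, 4 of 10 endothelial and 8 of 11 tested immune markers were called lower. In GFP mice the pericyte sums overlapped, at 234 to 285 CPM, and no pericyte or fibroblast marker was called by edgeR or DESeq2 (3 and 0 at an unadjusted p under 0.05). The fibroblast sum was 1330 and 1441 CPM in Dll1- and 1230 and 1305 CPM in Dll1+ libraries of GFP mice. The part of these cells in the Id3 result was not tested.

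**Figure D2:**
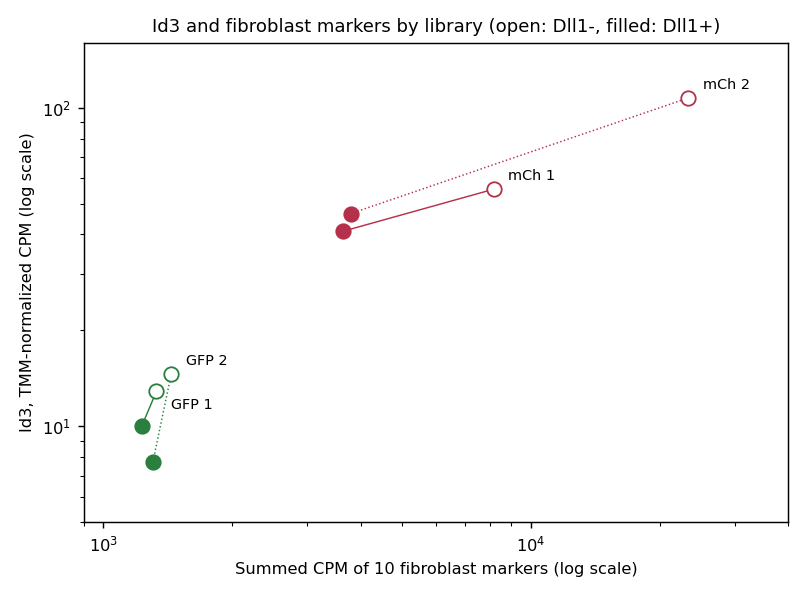
Id3 in TMM-normalized CPM (vertical log axis) against the summed CPM of 10 fibroblast markers (horizontal log axis) in the 8 libraries. Open circles are Dll1-, filled circles Dll1+ libraries, joined within a mouse, in green for GFP and red for mCh mice. Both values are highest in the Dll1- library of mCh mouse 2, at 107 CPM of Id3 and 23322 CPM of markers, and the GFP libraries differ in Id3 over a narrow range of markers.

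Id1 was at 17.5 and 19.8 CPM in Dll1- and 24.1 and 14.2 CPM in Dll1+ libraries of GFP mice, which overlapped. Levels in mCh mice were 31.5 and 29.5 CPM in Dll1- and 58.3 and 42.9 CPM in Dll1+ libraries. The mCh groups did not overlap, and the log2 fold change there was 0.72 ± 0.24 SE, which missed the threshold (edgeR adjusted p = 0.13) and passed it without GFP mouse 1 or 2 (0.046 and 0.048). The GFP mice moved in opposite directions, with log2 differences of 0.46 and -0.48. Over all 4 mice Id1 gave 0.37 ± 0.23 SE (edgeR adjusted p = 0.32), and the value in GFP minus mCh mice was -0.73 ± 0.34 SE (edgeR adjusted p = 0.47). Without GFP mouse 2 the value over the remaining mice was 0.64 and passed the threshold (edgeR adjusted p = 0.045).

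Id2 was the most abundant Id gene per kb of exon in every group. In GFP mice it was at 198 and 196 CPM in Dll1- and 157 and 192 CPM in Dll1+ libraries. In mCh mice the Dll1+ library was higher within each mouse, at 291 against 231 CPM and 136 against 118 CPM. The mCh mice differed more from each other than their Dll1+ cells did from their Dll1- cells. Over all mice the log2 fold change of Id2 was 0.04 ± 0.12 SE (edgeR adjusted p = 0.82). It was -0.18 ± 0.10 SE in GFP and 0.27 ± 0.10 SE in mCh mice (edgeR adjusted p = 0.31 and 0.13). Id4, the remaining family member, was between 0.520 and 8.48 CPM and gave 0.58 ± 0.29 SE over all mice (edgeR adjusted p = 0.23). The E proteins that Id proteins bind (Tcf3, Tcf4 and Tcf12) held 0 calls over all mice with edgeR or DESeq2 and 1 at an unadjusted p under 0.05, Tcf3 at -0.17 (edgeR adjusted p = 0.12). In mCh mice Tcf4 was called lower (-0.75 ± 0.14 SE, edgeR adjusted p = 0.029), beside 6.25% of all genes. It gave 0.24 ± 0.14 SE in GFP mice (edgeR adjusted p = 0.34). The difference between reporters was 0.98 ± 0.20 SE (edgeR adjusted p = 0.14). Fibroblast, pericyte, endothelial and immune markers were lower in Dll1+ cells of mCh mice too, and the part of these cells was not tested.

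Of the 3 TGF-beta isoforms, Tgfb2 was called, in GFP mice, and Tgfb1 was near the threshold there. Tgfb1 was at 29.6 and 28.9 CPM in Dll1- and 45.8 and 40.3 CPM in Dll1+ libraries of GFP mice. Among mCh mice Tgfb1 was at 41.8 and 56.8 CPM in Dll1- and at 49.5 and 48.1 CPM in Dll1+ libraries. The GFP groups did not overlap and the mCh groups did. The log2 fold change was 0.55 ± 0.13 SE in GFP mice, just short of the threshold (edgeR adjusted p = 0.055, and called under 4 of 6 alternatives other than leaving out a mouse, with adjusted p from 8.3e-05 to 0.16), and 0.01 ± 0.13 SE in mCh mice (edgeR adjusted p = 0.98). Over all mice it was 0.27 ± 0.15 SE (edgeR adjusted p = 0.25). The difference between reporters was 0.55 ± 0.18 SE (edgeR adjusted p = 0.29). Without mCh mouse 2 the value over all mice was 0.44 (edgeR adjusted p = 0.044) and that in GFP mice 0.56 (0.016), and without mCh mouse 1 the difference was 0.82 (0.041).

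Tgfb2 was at 71.3 and 71.8 CPM in Dll1- and at 50.5 and 46.1 CPM in Dll1+ libraries of GFP mice. These groups stood apart, and Tgfb2 fell by 0.57 ± 0.10 SE on the log2 scale (edgeR adjusted p = 0.019). In mCh mice Tgfb2 was at 50.3 against 51.9 CPM in mouse 1 and at 33.9 against 29.5 CPM in mouse 2 (Dll1- against Dll1+), a log2 fold change of -0.08 ± 0.09 SE (edgeR adjusted p = 0.64). The difference between reporters was -0.49 ± 0.13 SE and missed the threshold (edgeR adjusted p = 0.22), as did the change over all mice (-0.32 ± 0.12 SE, edgeR adjusted p = 0.13). The GFP call was lost without the mouse block (adjusted p = 0.39) and without either GFP mouse (0.15 without mouse 1 and 0.21 without mouse 2), while the log2 fold change was -0.57, -0.63 and -0.50 in these fits. It was kept under 5 of 6 alternatives other than leaving out a mouse.

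Tgfb3, the most abundant ligand, was higher in the Dll1+ library of 4 of 4 mice. It was at 509 and 367 CPM in Dll1- and 557 and 490 CPM in Dll1+ libraries of GFP mice, and at 327 and 238 CPM in Dll1- and 541 and 278 CPM in Dll1+ libraries of mCh mice. The groups overlapped within both reporters. The log2 fold change was 0.37 ± 0.11 SE over all mice (edgeR adjusted p = 0.075), 0.27 ± 0.15 SE in GFP mice (edgeR adjusted p = 0.30) and 0.47 ± 0.15 SE in mCh mice (edgeR adjusted p = 0.091). DESeq2 with the same model called it over all mice and in mCh mice.

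Inhba was lower in the Dll1+ library of 4 of 4 mice, at 32 to 241 counts per library. It went from 1.60 to 1.12 CPM and from 1.28 to 0.895 CPM in the GFP mice, and from 1.93 to 1.68 CPM and from 4.52 to 2.39 CPM in the mCh mice. Its log2 fold change over all mice was -0.54 ± 0.20 SE and missed the threshold (edgeR adjusted p = 0.12). Together with Id3 and Tgfb3 it made 3 of 10 members that went one way in all 4 mice, against 41.3% of all tested genes.

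Among the BMP ligands, Bmp4 changed in GFP mice. Bmp4 was at 0.887 and 1.49 CPM in Dll1- and at 2.79 and 3.24 CPM in Dll1+ libraries there, from 26 and 43 against 80 and 145 counts. The Dll1+ values were all above the Dll1- values, and Bmp4 rose by 1.37 ± 0.26 SE on the log2 scale (edgeR adjusted p = 0.027). In mCh mice it was at 2.07 and 5.05 CPM in Dll1- and at 1.97 and 4.50 CPM in Dll1+ libraries, a log2 fold change of -0.12 ± 0.23 SE (edgeR adjusted p = 0.76). Every GFP mouse was higher and every mCh mouse lower, but the difference of 1.49 ± 0.34 SE missed the threshold (edgeR adjusted p = 0.17). The GFP call was lost without the mouse block (adjusted p = 0.32), without GFP mouse 1 (0.20) and without GFP mouse 2 (0.14), while the log2 fold change was 1.34, 1.13 and 1.65 in these fits. It was kept under 5 of 6 alternatives other than leaving out a mouse. Bmp4 and Tgfb2 were 2 of 10 members called in GFP mice, where 9.13% of all genes were called, 4.29% higher and 4.84% lower.

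Bmp2 was at 1.74 to 2.59 CPM in 6 libraries and at 7.46 and 10.3 CPM in the Dll1- and Dll1+ libraries of mCh mouse 2. That mouse thus stood apart in both of its libraries, while the log2 fold change between Dll1+ and Dll1- cells was 0.07 ± 0.17 SE (edgeR adjusted p = 0.81). Bmp7 was at 1.77 and 1.42 CPM in Dll1- and 1.60 and 0.559 CPM in Dll1+ libraries of GFP mice. Its level in mCh mice was 15.0 and 9.45 CPM in Dll1- and 15.6 and 5.97 CPM in Dll1+ libraries. Its groups overlapped within both reporters, and its log2 fold change over all mice was -0.47 ± 0.24 SE (edgeR adjusted p = 0.23).

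**Figure D3:**
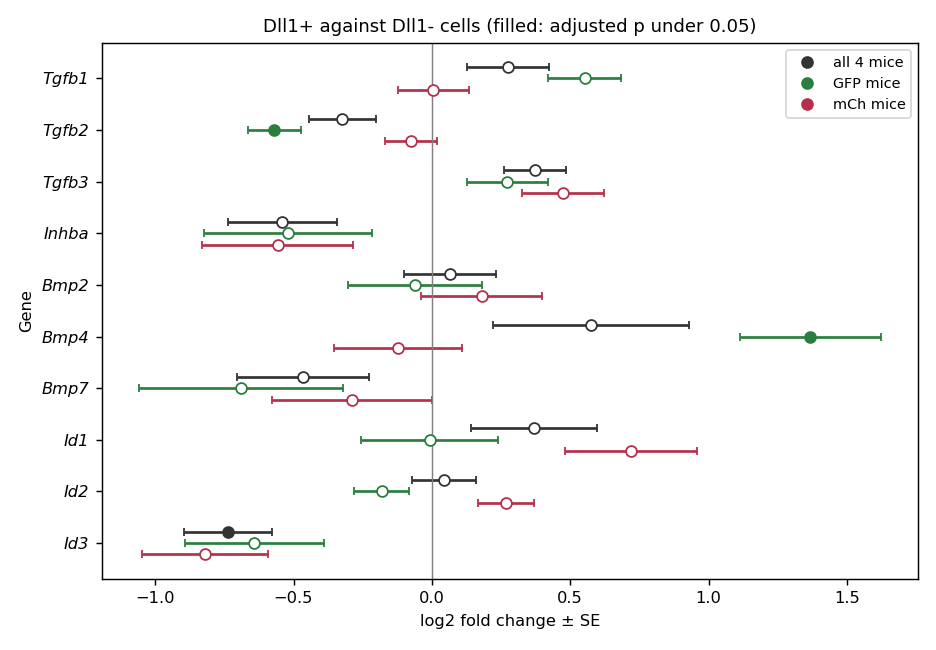
Log2 fold change of Dll1+ against Dll1- cells (horizontal axis) with its SE for each member (vertical axis), over all 4 mice in black, in GFP mice in green and in mCh mice in red. Filled points have an edgeR adjusted p under 0.05, which are Id3 over all mice at -0.74 and Bmp4 and Tgfb2 in GFP mice at 1.37 and -0.57.

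In mCh mice 0 of 10 members were called by edgeR, where 11.8% of all genes were called (5.51% higher and 6.25% lower). At an unadjusted p under 0.05 there were 4, and DESeq2 called 3, namely Tgfb3, Id1 and Id3. The median log2 fold change of the 10 members was 0.05 over all mice, -0.12 in GFP mice and -0.04 in mCh mice, beside 0.00, -0.01 and 0.02 for all tested genes. For the difference between reporters edgeR and DESeq2 called 0 members, with 4 at an unadjusted p under 0.05, and edgeR called 0.0710% of all genes. The members' groups were apart within GFP mice for 6 of 10 and within mCh mice for 2 of 10, where 56.5% and 45.2% of all genes did not overlap.

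Between reporters 3 of 10 members were called in each population, which is no more than the share of all genes (36.6% in Dll1- and 30.6% in Dll1+ cells). In Dll1- cells Id3, Bmp7 and Tgfb1 were called higher in mCh than in GFP mice, and in Dll1+ cells Id3, Bmp7 and Id1. Id3 was 5.91-fold higher in Dll1- cells (log2 fold change 2.56 ± 0.32 SE, edgeR adjusted p = 0.0026) and 4.93-fold higher in Dll1+ cells (2.30 ± 0.32 SE, edgeR adjusted p = 0.0056). Its 4 groups stood apart from each other, in the order Dll1- mCh, Dll1+ mCh, Dll1- GFP and Dll1+ GFP. Bmp7 was 7.66-fold higher in Dll1- cells (2.94 ± 0.63 SE, edgeR adjusted p = 0.013) and 10.2-fold higher in Dll1+ cells (3.36 ± 0.65 SE, edgeR adjusted p = 0.013). It had 25 to 52 counts in the GFP and 286 to 1870 counts in the mCh libraries. In both populations the Bmp7 call was kept under 5 of 6 alternatives other than leaving out a mouse, and the Id3 call under all 6.

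Id1 was 2.65-fold higher in Dll1+ cells of mCh mice (log2 fold change 1.41 ± 0.27 SE, edgeR adjusted p = 0.012) and gave 0.71 ± 0.26 SE in Dll1- cells (edgeR adjusted p = 0.075). Tgfb1 was 1.68-fold higher in Dll1- cells (0.75 ± 0.16 SE, edgeR adjusted p = 0.011) and gave 0.18 ± 0.16 SE in Dll1+ cells (edgeR adjusted p = 0.40). All 4 mCh libraries were above all 4 GFP libraries for Id3, Bmp7, Id1, Inhba and Bmp2, where the nearest Bmp2 values were 2.33 and 2.40 CPM. The share of all genes with such a split of 8 libraries was not counted, so it is not read as a trait of the members. Within Dll1- cells the mCh group was apart from the GFP group for 7 members above and 2 below. Within Dll1+ cells it was apart for 6 above and 0 below. Of all genes, 70.9% in Dll1- and 70.0% in Dll1+ cells did not overlap. Inhba gave 1.14 ± 0.45 SE in Dll1- and 1.02 ± 0.46 SE in Dll1+ cells, and Bmp2 1.23 ± 0.76 SE and 1.63 ± 0.75 SE, none past the threshold (edgeR adjusted p from 0.090 to 0.25). The remaining values were -0.76 and -0.25 for Tgfb2, -0.63 and -0.36 for Tgfb3, 1.56 and 0.10 for Bmp4 and -0.17 and 0.29 for Id2, in Dll1- and Dll1+ cells in that order (edgeR adjusted p from 0.077 to 0.91).

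Of all genes, 18.7% were called higher and 17.9% lower in Dll1- cells, and 15.2% higher and 15.4% lower in Dll1+ cells. The members' median log2 fold change was 0.95 in Dll1- and 0.66 in Dll1+ cells, beside 0.01 and 0.07 for all genes. The reporters were on different mice, so the reporter construct and the mice cannot be told apart. Every one of these calls was lost when a GFP mouse was left out. For Id3 the adjusted p was then 0.081 without mouse 1 and 0.073 without mouse 2 in Dll1- cells, and 0.12 and 0.14 in Dll1+ cells, with log2 fold changes of 2.10 to 2.64. Without mCh mouse 1, 9 members were called in Dll1- and 6 in Dll1+ cells, and without mCh mouse 2, 4 in each. In Dll1- cells 10 of 10 fibroblast, 6 of 8 pericyte, 10 of 10 endothelial and 11 of 11 tested immune markers were higher in mCh mice as well, and in Dll1+ cells 6, 4, 4 and 7 of them. The sum of endothelial markers was 69 to 76 CPM in GFP libraries and 146 to 594 CPM in mCh libraries. The sum of basal markers, given above by library, was higher in every mCh than in every GFP library. In Dll1- cells 5 of 10 basal markers were called higher and 1 lower in mCh mice, and in Dll1+ cells 7 higher and 0 lower. The part of these cells in the members' differences was not tested.

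**Figure D4:**
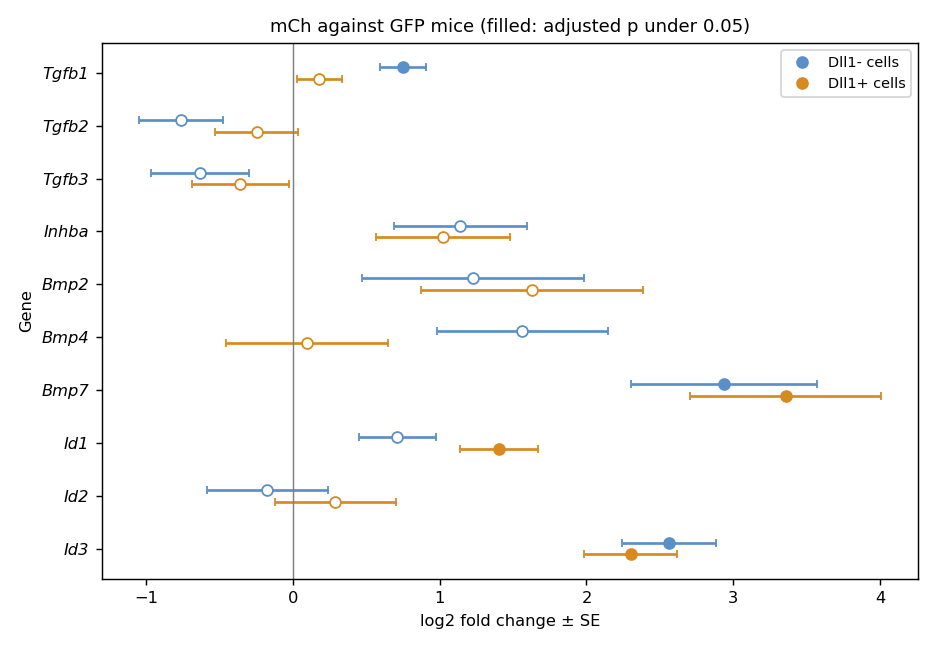
Log2 fold change of mCh against GFP mice (horizontal axis) with its SE for each member (vertical axis), in Dll1- cells in blue and in Dll1+ cells in orange. Filled points have an edgeR adjusted p under 0.05, which are Id3 and Bmp7 in both populations, Tgfb1 in Dll1- cells and Id1 in Dll1+ cells, between 0.75 and 3.36.

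Other genes of the pathway were read from 10 lists, with 113 genes that are no members, 92 of them tested. These lists were chosen with earlier results of these data known, so their counts are no test against the share of all genes. Among 11 intracellular inhibitors of Smad signaling, 6 rose in Dll1+ cells over all mice and none fell. The median log2 fold change of the 11 was 0.39, and 6.98% of all genes were called higher. The inhibitory Smads Smad6 and Smad7, counted with the Smad genes, were not called. They gave -0.05 ± 0.14 SE and 0.11 ± 0.08 SE over all mice (edgeR adjusted p = 0.82 and 0.37). Tob1, an antiproliferative protein that restrains BMP-activated Smads, rose from 300 and 404 to 599 and 798 CPM in GFP mice. In mCh mice it rose from 132 and 170 to 252 and 329 CPM (0.97 ± 0.06 SE over all mice, edgeR adjusted p = 0.0053). Ldlrad4, which keeps Smad2 and Smad3 from the receptor, gave 0.75 ± 0.06 SE (edgeR adjusted p = 0.0053). Pmepa1, a TGF-beta target with the same role, gave 0.59 ± 0.07 SE (edgeR adjusted p = 0.0083), and Skil, the SnoN corepressor, 0.56 ± 0.09 SE (edgeR adjusted p = 0.015). Tgif1 and Nedd4l were the other two called.

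These 6 genes were higher in the Dll1+ library of every mouse, but they were picked by the call over these same mice. Of all tested genes, 41.3% went one way in all 4 mice. Within reporters 4 of 11 were called in GFP mice (4.29% of all genes called higher) and 6 of 11 in mCh mice (5.51%), where the fibroblast and pericyte sums were lower in Dll1+ libraries. Without mCh mouse 2, 5 of 11 were called, without mCh mouse 1 3 of 11, and without the mouse block none (7 of 11 with DESeq2 and the block). Immediate-early genes moved with them, at 26262 and 30916 against 42785 and 42244 CPM in GFP and 18024 and 24840 against 27658 and 32310 CPM in mCh mice (Dll1- against Dll1+), as did the basal markers given above, and their part was not tested. Between reporters 5 of 11 were called lower and 1 higher in mCh mice in Dll1- cells, and 4 lower and 1 higher in Dll1+ cells. Of all genes, 17.9% were called lower and 18.7% higher in Dll1- cells, and 15.4% and 15.2% in Dll1+ cells. Tob1, Ldlrad4, Skil and Nedd4l were lower in both populations, by 0.47 to 1.27 on the log2 scale, and Tgif2 was higher in both (0.75 and 0.88).

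Among 18 extracellular antagonists, 14 were tested, 5 rose and 1 fell, and the median was -0.05. Of all genes, 6.98% were called higher and 7.04% lower. The sums of basal and of luminal markers were also higher in Dll1+ cells of every mouse, as given above. The part of these cells in the rises of antagonists, of Col7a1 and of Itgav was not tested. Sostdc1, which binds BMP and Wnt receptors, was at 0.239 and 0.243 against 1.05 and 0.738 CPM in GFP mice and at 0.577 and 0.793 against 4.35 and 2.93 CPM in mCh mice, from 7 to 285 counts. Its log2 fold change was 2.21 ± 0.29 SE (edgeR adjusted p = 0.011). Chrdl2 (1.30), Vwc2 (1.44), Fst (1.44) and Fstl3 (0.56) also rose on the log2 scale, with adjusted p-values from edgeR of 0.0075 to 0.050. Fst and Fstl3 encode follistatins, which bind activin, and the chordin-like Chrdl2 and Vwc2 bind BMPs. Chrdl1, another chordin-like antagonist, fell by 1.06 ± 0.25 SE (edgeR adjusted p = 0.043). Dcn, a matrix proteoglycan that fibroblasts secrete, gave log2 differences of -0.13 and -0.34 in GFP mice and of -1.63 and -3.67 in mCh mice and was not called (edgeR adjusted p = 0.22). It was named after its values were seen. The count of antagonists that rose was 6 without mCh mouse 2, 1 without GFP mouse 1, 2 without GFP mouse 2 or mCh mouse 1, and 0 without the mouse block.

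**Figure D5:**
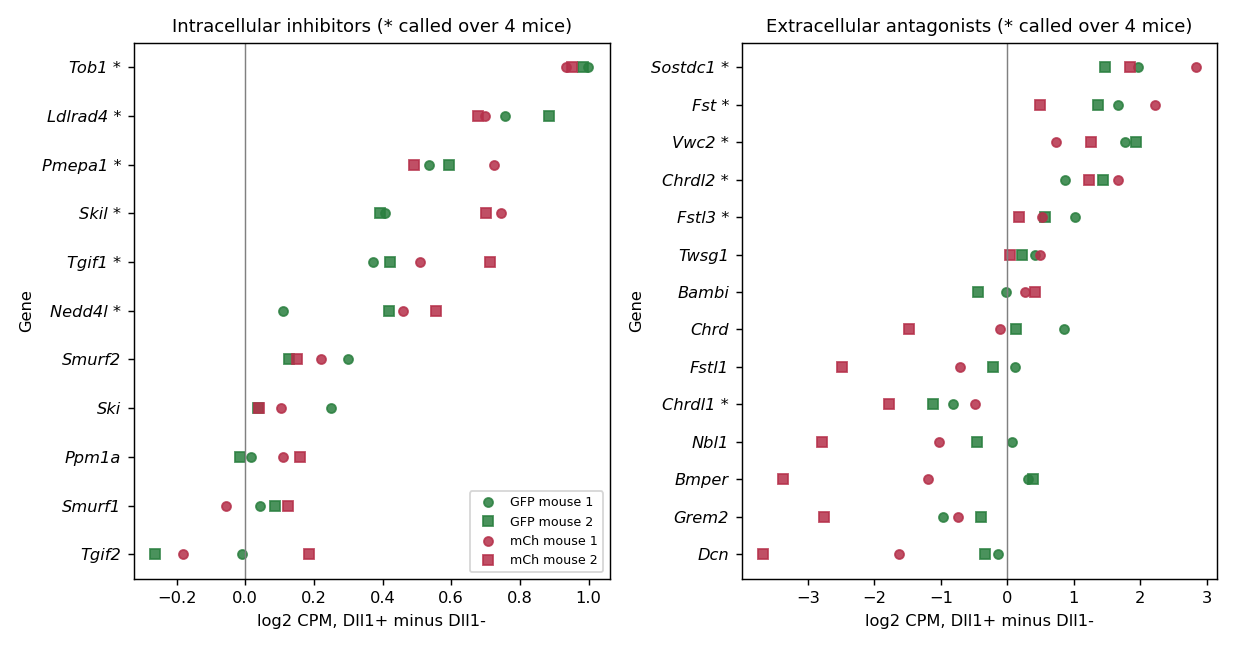
Log2 CPM in Dll1+ minus Dll1- cells (horizontal axes, different scales) for the tested intracellular inhibitors (left) and extracellular antagonists (right), with genes on the vertical axes. Each gene has a point for each of the 4 mice, green for GFP and red for mCh mice, and an asterisk marks an edgeR adjusted p under 0.05 over all mice. The points of Tob1 lie between 0.935 and 0.998, while Dcn ranges from -0.13 in GFP mouse 1 to -3.67 in mCh mouse 2.

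Of 15 TGF-beta response genes, 5 rose and none fell, with a median of 0.19, beside 6.98% of all genes called higher and 7.04% lower. But 4 of those 5 are the inhibitors Ldlrad4, Pmepa1, Skil and Tgif1. In mCh mice 4 were called higher and 2 lower, beside 5.51% and 6.25% of all genes. The 2 were the fibronectin gene Fn1 (-1.67 ± 0.18 SE, edgeR adjusted p = 0.010) and Tgfbi (-0.9996 ± 0.19 SE, edgeR adjusted p = 0.032). Fibroblast markers were lower there as well, and their part was not tested. In GFP mice Fn1 went from 126 and 146 to 105 and 107 CPM and was not called (-0.35 ± 0.17 SE, edgeR adjusted p = 0.27). Tgfbi gave 0.25 ± 0.20 SE in GFP mice (edgeR adjusted p = 0.51). The fifth gene called over all mice was Col7a1, the anchoring fibril collagen (1.002 ± 0.23 SE, edgeR adjusted p = 0.0499). Of 14 tested BMP response genes, 2 rose and 2 fell, with a median of 0.07, beside 14.0% of all genes called in either direction. Hey1, which is also a Notch target, rose by 1.02 ± 0.12 SE (edgeR adjusted p = 0.0085) and Runx2 by 0.68 ± 0.17 SE (edgeR adjusted p = 0.049). Msx2, a homeobox gene, fell by 1.58 ± 0.22 SE (edgeR adjusted p = 0.011), the fourth being Id3.

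Of 26 other ligands of the superfamily 13 were tested. Inhbb, the activin B subunit, rose by 0.38 ± 0.07 SE (edgeR adjusted p = 0.021) from 92.7 to 145 CPM in the Dll1- to 119 to 169 CPM in the Dll1+ libraries. Gdf5 rose by 0.73 ± 0.18 SE (edgeR adjusted p = 0.048). Bmp3, known as an antagonist of other BMPs, fell by 2.22 ± 0.47 SE (edgeR adjusted p = 0.038), from 2.43 to 8.73 CPM in Dll1- to 0.604 to 1.44 CPM in Dll1+ libraries, which did not overlap. Of 13 genes for latency, activation and storage 1 rose, beside 6.98% of all genes called higher. It was Itgav, the alpha-v subunit of integrins that free latent TGF-beta (0.72 ± 0.09 SE, edgeR adjusted p = 0.0093). Itgb8 gave 0.84 ± 0.25 SE and was not called (edgeR adjusted p = 0.092). Within mCh mice Itgb8, Itgav and Ltbp3 were called higher and Nrros lower, beside 5.51% and 6.25% of all genes. Within GFP mice Itgav was called higher and Thbs1 lower, beside 4.29% and 4.84%.

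Over all mice receptors held 0 calls of 15 tested with edgeR, beside 14.0% of all genes. They held 6 at an unadjusted p under 0.05 and 3 with DESeq2. The lowest p was that of Bmpr1b (-1.30 ± 0.36 SE, edgeR adjusted p = 0.067). In mCh mice Eng, the endoglin co-receptor known from endothelium, was called lower (-1.50 ± 0.29 SE, edgeR adjusted p = 0.049). Endothelial, pericyte, fibroblast and immune markers were lower there too, as given above, and the part of these cells was not tested. The 8 Smad genes held 0 calls with edgeR and DESeq2 and 0 at an unadjusted p under 0.05, with Smad3 nearest at -0.16 ± 0.08 SE (edgeR adjusted p = 0.23). Medians over all mice were 0.09 for receptors and 0.00 for Smad genes.

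Pathway genes also differed between reporters, beside 36.6% of all genes called in Dll1- and 30.6% in Dll1+ cells. Called in either direction were 6 of 15 receptors and 3 of 14 BMP response genes in Dll1- cells, and 5 of 15 and 6 of 14 in Dll1+ cells. In Dll1- cells 9 of 14 antagonists were higher in mCh mice and 1 lower, and 6 of 13 other ligands were higher. Among receptors 1 was higher and 5 lower. In Dll1+ cells 6 of 14 antagonists and 6 of 14 BMP response genes were higher in mCh mice, the latter being Id3, Bambi, Msx1, Id1, Atoh8 and Id4. Antagonists with the lowest p in Dll1- cells were Dcn, Nbl1, Fstl1 and Bmper. The sums of fibroblast markers in these libraries are given above.

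Across the 8 libraries the genes most like a member in log2 CPM were Wnt11 and Col4a1 for Id3 (Pearson r = 0.994 for both) and S100a8 and Urah for Bmp7 (0.991 for both). They were Mob2 (0.981) and Il17b (0.965) for Id1, and Insl6 (0.974) and Letmd1 (0.969) for Id2. For Tgfb1 they were Gpsm1 (0.983) and Gfra2 (0.975), for Tgfb2 Bmf (0.984) and Copg2 (0.977), and for Tgfb3 Gm43672 (0.989) and Sel1l3 (0.974). For Inhba they were Gm7809 (0.990) and Ptpn13 (0.986), for Bmp2 Camkv (0.981) and P4ha2 (0.980), and for Bmp4 Gm4691 (0.994) and Gm29292 (0.978). Among the members, r was lowest for Tgfb2 with Bmp4, at -0.93. These correlations describe 8 libraries that share mice and the split by reporter, and come from a search of all tested genes.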

How the data were processed

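RNA was measured in 8 libraries of sorted tumor cells from 4 mice. The authors mapped reads with salmon to GENCODE M20 transcripts (GRCm38.p6), used tximport to reach genes, and deposited the estimated counts as unnormalized whole numbers. The salmon version and strand setting are not given in the sources used here. Symbols were found for 53668 of 53697 genes in GENCODE M21.

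The test was edgeR 4.0.16 under R 4.3.3 (TMM, filterByExpr on Dll1 status, robust quasi-likelihood F test, 18322 genes, Benjamini-Hochberg adjusted p under 0.05). Dll1+ and Dll1- cells were compared with the mouse as a block, as in the study's model, over all mice and with an effect per reporter. The reporters were compared with a fit of 4 group means. That fit has no term for the mouse, so the Dll1+ and Dll1- libraries of a mouse enter it as independent. The pairs come from the mouse ID in the labels. Deviations of paired libraries correlated at -0.05 in GFP and 0.55 in mCh mice. SE is the log2 fold change over the root of F. Libraries per group number 2, so p-values rest on few mice. Log2 CPM used a prior count of 2. A count floor of 3 corresponds to 0.0242 to 0.110 CPM, for counting error only.

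Named were the 10 members, Dll1, up to 4 called genes of each pathway list or else the gene with the lowest p, up to 3 markers and the 2 genes most correlated with each member. Other called genes were named after their values were seen. Members and lists were chosen with earlier results of these data known. Alternatives were RLE factors, DESeq2 1.42.0, no filter, at least 10 counts in every library, no block, other sample sets, each mouse left out, a random mouse effect (limma 3.58.1) and, chosen after seeing the data, the reporter in place of the mouse. Scripts were tested on simulated data.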

Additional observations from a re-analysis of the deposited data

Results flagged for a closer look

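In 2 members both GFP mice moved one way between Dll1- and Dll1+ cells and both mCh mice the other way. For Bmp4 the difference between the reporters' effects (GFP minus mCh) was 1.49 on the log2 scale, with mouse values of 1.61 and 1.10 in GFP and of -0.07 and -0.17 in mCh mice. For Id2 it was -0.45, with mouse values of -0.33 and -0.03 in GFP and of 0.33 and 0.20 in mCh mice. The differences were tested with edgeR and missed the threshold (adjusted p = 0.17 for Bmp4 and 0.27 for Id2). On the CPM scale the libraries of mCh mouse 2 stood apart for Bmp2 by Dixon's criterion, with a gap to the nearest library of 0.878 of the range of the 4 Dll1- libraries and 0.924 of that of the 4 Dll1+ libraries. On the log2 scale no member had a library or mouse apart from the other 3, in 30 groups of 4 values. Chance marks about 1 in 20 groups.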

How the results depend on the processing

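The number of members called over all 4 mice was 1. It was 2 with DESeq2 and with no filter, 0 with no replicate block (also with the reporter as a term in place of the mouse, chosen after seeing the data), and 0 to 2 with each mouse left out. In GFP mice the count of 2 became 4 with no filter, 0 with no replicate block and 0 to 3 with a mouse left out. In mCh mice the count of 0 became 3 with DESeq2 and with no filter, and 0 to 1 with a mouse left out. For the difference between reporters, 0 became 2 with no filter and 0 to 1 with a mouse left out. Between reporters the 3 members in Dll1- cells became 6 with DESeq2, 5 with no filter and 0 to 9 with a mouse left out, and the 3 in Dll1+ cells 0 to 6. With the mouse as a random-effect replicate block the same 3 members were called in each. Intracellular inhibitors that rose numbered 6, against 0 with no replicate block and 3 to 5 with a mouse left out. Extracellular antagonists numbered 5, against 0 with no block, 3 with the reporter term and 1 to 6 with a mouse left out. TGF-beta response genes numbered 5, against 0, 3 and 2 to 5. The causes were not tested.

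Small values changed sign. Tgfb1 in mCh mice (0.01) became -0.0092 with RLE factors, -0.010 with DESeq2, -0.012 with no block, -0.013 with that reporter fitted alone and -0.015 with no filter. Id1 in GFP mice (-0.01) became 0.0077 with RLE factors, 0.0079 with DESeq2, 0.036 with no block and 0.00088 with that reporter fitted alone. Bmp4 in Dll1+ cells of mCh against GFP mice became -0.094 with the random effect. With a mouse left out, the Dll1+ effect ranged from -0.13 to 0.0083 for Bmp2 in GFP mice, -0.084 to 0.13 for Bmp2 over all mice and -0.14 to 0.44 for Bmp2 in mCh mice. It ranged from -0.68 to 0.028 for Bmp7 in mCh mice, -0.47 to 0.46 for Id1 in GFP mice, -0.054 to 0.17 for Id2 over all mice, -0.26 to 0.22 for Tgfb1 in mCh mice and -0.23 to 0.016 for Tgfb2 in mCh mice. The GFP minus mCh difference ranged from -0.49 to 0.087 for Bmp2, -1.05 to 0.14 for Bmp7, -0.16 to 0.59 for Id3, -0.28 to 0.43 for Inhba and -0.41 to 0.084 for Tgfb3. The mCh against GFP value in Dll1+ cells ranged from -0.61 to 0.54 for Bmp4, -0.40 to 0.74 for Id2, -0.75 to 0.11 for Tgfb2 and -0.95 to 0.051 for Tgfb3, and in Dll1- cells from -0.74 to 0.28 for Id2. Of all values of single genes under the alternatives, 593 kept their direction and side of the threshold, 42 newly passed it, 81 no longer passed it and 33 changed sign.

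Over the whole table, 2568 genes were called over all mice, against 4362 with DESeq2, 1352 with the reporter term, 0 with no block and 405 to 2401 with a mouse left out. In GFP mice 1673 became 3001 with no filter, 274 with no block and 2 to 2355 with a mouse left out. In mCh mice 2154 became 3637, 212, and 905 to 1315, and 0 with that reporter fitted alone. The 13 genes of the difference became 541 with DESeq2, 1143 with no filter, 44 with at least 10 counts, 0 with no block and 0 to 717 with a mouse left out. The 6701 and 5612 genes between reporters in Dll1- and Dll1+ cells became 0 to 7828 and 0 to 6897 with a mouse left out, 0 without either GFP mouse. With 2 mice per reporter, the lone remaining mouse is then assumed to vary like the others.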
